A study of Mus musculus with 12 samples.

Results

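The 8 genes described here encode the central components of the mouse Hedgehog signalling pathway: the secreted ligands Sonic hedgehog (Shh) and Indian hedgehog (Ihh), the ligand receptor Patched-1 (Ptch1), the signal transducer Smoothened (Smo), the ligand-binding inhibitor Hhip, and the transcription factors Gli1, Gli2 and Gli3. They were chosen by name, with earlier results of these data known. They were found by matching the transcript accession of each array probe to the gene symbol, and all 8 were among the 17178 named genes on the arrays. They were measured by 12 probes, a pair each for Smo, Hhip, Gli2 and Gli3 and a single probe for each of the others, so that different probes of a gene share its transcript and are no replicates. The brighter probe of a pair stands for the gene, and the other is given beside it.

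In the resting state of this pathway, Ptch1 holds Smo inactive and Gli proteins, Gli3 above all, are processed into repressors of transcription. Binding of a Hedgehog ligand to Ptch1 frees Smo, which acts in the primary cilium and turns Gli2 and Gli3 into activators that switch on target genes, among them Ptch1, Hhip and Gli1 themselves. In the developing lung, epithelial Shh signals to the mesenchyme around it, and in the embryonic mammary bud the pathway must be held off by Gli3 repressor.

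The study profiled messenger RNA in epithelial cell preparations of mouse lung and mammary gland, some labelled adult and some reprogrammed; its title describes the reprogramming as dependent on stroma. It used 12 single-colour arrays, 3 per group: cells labelled reprogrammed lung (replicates 1, 3 and 4), reprogrammed mammary (replicates 1, 2 and 3), adult lung (replicates 1, 2 and 3) and adult mammary (replicates 1, 2 and 4). Adult donors were female mice 10 weeks old, whose organs were digested with trypsin and collagenase and whose epithelia were enriched by repeated slow centrifugation, with no cell sort stated, and donor cells were embedded in Matrigel for transplantation. The labels also describe embryonic lung epithelium from the E13.5 stage, without tying it to a group. They name no strain, host, or agent, and leave unsaid whether a reprogrammed group is named after its donor organ or after the tissue it built, and whether the arrays of a group came from separate animals. The p-values therefore measure the spread between arrays, which may be technical.

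Levels are log2 signal relative to the 75th percentile of the same array, so 0 is that percentile, and levels of different probes are not comparable. Reprogrammed lung replicate 1 and adult mammary replicate 4 stood apart from the other 10 arrays: their log2 span of signal was 6.10 and 7.11 against 8.46 to 9.13, and 91.1% and 89.1% of their probes were well above background by the scanner's own mark, against 71.8% to 77.5%. Cell type markers also separated the groups. The summed signal of 6 markers of alveolar type II and club cells, in units of the array's 75th percentile, was 2.02 to 4.35 in reprogrammed lung, 1.92 to 2.43 in reprogrammed mammary, 400.1 to 525.8 in adult lung and 2.51 to 2.80 in adult mammary. Nkx2-1, the lung epithelial transcription factor, was not well above background on any reprogrammed or adult mammary array and was on all 3 adult lung arrays. The sum of 6 mammary luminal markers was 6.84 to 60.0 in reprogrammed lung, 40.4 to 66.6 in reprogrammed mammary, 0.233 to 0.382 in adult lung and 28.6 to 46.2 in adult mammary, so the arrays labelled reprogrammed lung were low in lung markers and carried mammary ones. The sum of 8 general epithelial markers was 32.3 in reprogrammed lung replicate 1 and 160.6 and 193.0 in the other two arrays of that group, 217.9 to 246.8 in reprogrammed mammary, 21.1 to 28.0 in adult lung and 208.0 to 270.0 in adult mammary. In such mixed preparations, fewer cells of a type and less RNA per cell cannot be told apart.

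Hhip and Ptch1 are textbook direct Gli targets, so the 250 bases before their annotated transcription starts are shown, from RefSeq on GRCm38.p6. These are chr8:80058009-80058258 for Hhip and chr13:63565736-63565985 for Ptch1, both on the minus strand and written 5′ to 3′. Capitals mark the 9-base stretch with the fewest mismatches to the Gli binding motif TGGGTGGTC on either strand, the first such stretch where several tie.

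Hhip: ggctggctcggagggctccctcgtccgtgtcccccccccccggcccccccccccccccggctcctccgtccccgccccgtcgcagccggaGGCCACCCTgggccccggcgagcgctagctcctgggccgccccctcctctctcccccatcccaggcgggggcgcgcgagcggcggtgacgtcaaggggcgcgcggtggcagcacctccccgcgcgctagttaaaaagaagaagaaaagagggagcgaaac

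Ptch1: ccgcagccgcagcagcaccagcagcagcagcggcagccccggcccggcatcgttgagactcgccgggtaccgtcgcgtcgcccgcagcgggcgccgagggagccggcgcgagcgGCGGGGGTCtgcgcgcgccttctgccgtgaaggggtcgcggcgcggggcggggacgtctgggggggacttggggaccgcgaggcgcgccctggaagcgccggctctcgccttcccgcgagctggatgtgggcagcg

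Neither window held the motif exactly or with 1 mismatch. The closest stretch of Hhip had 2 mismatches and lay on the opposite strand, and 51.8% of all 32851 listed promoters hold a stretch as close. The closest stretches of Ptch1 had 3 mismatches. The promoters of Ihh, Smo and Gli2 came within 2 mismatches and that of Gli3 within 3. Over all promoters, 0.225% held the exact motif and 5.79% held it with at most 1 mismatch, so the absence of a match in a window of this length is the usual case. No sequence is shown for Shh or Gli1.

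Among the ligands, Shh, the main Hedgehog ligand of lung epithelium, was high in adult lung and near or below the detection limit elsewhere. Its level was −3.48, −6.31 and −6.00 in reprogrammed lung, −7.03, −7.01 and −6.15 in reprogrammed mammary, −2.26, −1.69 and −1.56 in adult lung, and −7.20, −7.08 and −5.35 in adult mammary. All 3 adult lung arrays lay above all 9 others, and the probe was well above background on those 3 arrays and on reprogrammed lung replicate 1 only. Because most values outside adult lung were at background, fold changes are bounds, set by the lowest level that the scanner marked as above background on the array. Shh fell in reprogrammed lung, which was at least 6.56-fold lower than adult lung (limma, log2 difference −3.43 ± 0.72 SE, adjusted p = 0.00634). It was likewise at least 9.44-fold lower in reprogrammed mammary than in adult lung (adjusted p = 0.000759 by limma). In adult lung it was at least 9.83-fold higher than in adult mammary (limma, log2 difference 4.71 ± 0.72 SE, adjusted p = 0.000953). Shh was tested because it was well above background on all arrays of adult lung, and of no other group. That rule favours genes high in adult lung, so these p-values add no support beyond the levels. Reprogrammed lung replicate 1 held the highest value outside adult lung, and without it the log2 difference between reprogrammed and adult lung was −4.32. The bounds hold for this scaling of signal only. Under normexp background correction the log2 differences of Shh were smaller, at −1.30 for reprogrammed minus adult lung, −1.39 for reprogrammed mammary minus adult lung and 1.44 for adult lung minus adult mammary. In the authors' log2 values they were −2.08, −2.27 and 2.42, and all of these stayed past the threshold. Without adult mammary replicate 4 the difference between adult lung and adult mammary was 5.30. On the 3 slides that carried both an array of reprogrammed lung and an array of adult lung, the difference was −4.05, −1.92 and −4.31, the smallest on the slide with that array.

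Ihh, the ligand best known for growth plate cartilage, stayed close to the detection limit in every group. Its level was −3.88, −4.57 and −4.64 in reprogrammed lung, −4.95, −4.20 and −4.85 in reprogrammed mammary, −4.60, −3.96 and −4.74 in adult lung, and −4.05, −4.52 and −4.45 in adult mammary. The groups overlapped in every comparison, and the probe was above background on 9 of 12 arrays. The difference was 0.07 between reprogrammed and adult lung (95% interval −0.59 to 0.74) and −0.10 between adult lung and adult mammary (−0.76 to 0.56), neither past limma's threshold.

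Other genes on the ligand side were taken from a list of 9, of which 8 could be tested. In reprogrammed lung, 2 rose and 3 fell against adult lung, and in adult lung 3 were higher and 2 lower than in adult mammary, where 23.4% and 28.5% of all features were called in either direction. Scube2, a secreted protein that helps release the lipid-bearing ligand, was at −0.83, −2.10 and −1.93 in reprogrammed lung, −1.47, −1.39 and −1.79 in reprogrammed mammary, 1.06, 1.34 and 1.27 in adult lung, and −1.78, −1.81 and −1.78 in adult mammary. Adult lung again lay above every other array, as it did for Shh. The log2 difference was −2.84 ± 0.29 SE for reprogrammed minus adult lung (adjusted p = 0.000123 by limma) and 3.01 ± 0.29 SE for adult lung minus adult mammary (adjusted p = 7.07e-05 by limma). Its relative Scube1 differed by −2.23 and 2.51 in the same comparisons. Disp2, a relative of the ligand-release protein Dispatched-1, was at least 33.5-fold lower in reprogrammed than in adult lung and at least 29.4-fold higher in adult lung than in adult mammary (adjusted p = 0.00506 and 0.00350 by limma). Disp2, like Shh, was tested through adult lung alone. Disp1 itself, which moves ligand out of the producing cell, went the other way: it was higher by 1.39 in reprogrammed than in adult lung and differed by −0.83 between adult lung and adult mammary, all on the log2 scale. The heparan sulfate proteoglycan Gpc1 followed Disp1, at 1.07 and −1.40.

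Hhip binds Hedgehog ligands at the cell surface and keeps them from Ptch1. Its level was −3.14, −3.22 and −3.25 in reprogrammed lung, −3.46, −3.53 and −3.23 in reprogrammed mammary, 0.03, −0.51 and −0.41 in adult lung, and −2.19, −4.14 and −4.38 in adult mammary. Adult lung lay above all other arrays, the 3 reprogrammed lung arrays lay close together, and adult mammary replicate 1 sat well above the other two arrays of its group. Hhip fell 7.50-fold in reprogrammed lung against adult lung (limma, log2 difference −2.91 ± 0.46 SE, adjusted p = 0.00150). It was 8.63-fold lower in reprogrammed mammary than in adult lung (adjusted p = 0.000859 by limma). It was 9.67-fold higher in adult lung than in adult mammary (limma, log2 difference 3.27 ± 0.46 SE, adjusted p = 0.000639). Without adult mammary replicate 1 this difference was 3.97. Under normexp the log2 differences of Hhip were −1.98, −1.89 and 1.93 in these comparisons, each past the threshold. Within slides, reprogrammed lung was lower than adult lung by log2 differences of −3.25, −2.73 and −2.74. The dimmer probe of Hhip was not well above background outside adult lung and gave at least 3.13-fold less in reprogrammed than in adult lung and at least 3.66-fold more in adult lung than in adult mammary (adjusted p = 0.00762 and 0.00560 by limma). That probe was thus tested through adult lung alone.

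Ptch1, the receptor and a target of its own pathway, showed smaller differences. Its level was −1.83, −2.58 and −2.67 in reprogrammed lung, −2.46, −2.19 and −2.45 in reprogrammed mammary, −1.76, −1.88 and −1.99 in adult lung, and −2.56, −3.29 and −2.62 in adult mammary. Adult lung was above both mammary groups on every array, and the replicate of reprogrammed lung that lay inside the adult lung range was replicate 1, one of the arrays of narrow span. Ptch1 was 1.93-fold higher in adult lung than in adult mammary (limma, log2 difference 0.95 ± 0.26 SE, adjusted p = 0.0207). This call was lost when adult lung replicate 1, adult lung replicate 2 or adult mammary replicate 2 was left out (adjusted p of 0.0717, 0.0609 and 0.0802) and with slide as a fixed block (0.161), the range over its alternatives being 0.00214 to 0.161. Between reprogrammed and adult lung the log2 difference was −0.48 (95% interval −1.06 to 0.10) and missed the threshold (adjusted p = 0.223 by limma). Without reprogrammed lung replicate 1 it was −0.75 (adjusted p = 0.0325 by limma; 0.0313 to 0.434 over all alternatives). With every array kept it was also called under quantile normalization (−0.64, adjusted p = 0.0316), under normexp (−0.37, adjusted p = 0.0324) and in the authors' log2 values (−0.49, adjusted p = 0.0375). In the order of group means, adult lung at −1.88 came first, then reprogrammed lung at −2.36 and reprogrammed mammary at −2.37, whose difference of 0.01 lay within their spread, and last adult mammary at −2.82.

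Smo, the membrane protein that Ptch1 restrains, was at −1.57, 0.88 and 0.60 in reprogrammed lung, 0.66, 0.35 and 0.68 in reprogrammed mammary, −0.54, −0.14 and −0.17 in adult lung, and 0.34, 0.31 and 0.75 in adult mammary. Adult lung lay below both mammary groups and below reprogrammed lung replicates 3 and 4, while reprogrammed lung replicate 1 was the lowest of all 12 arrays. With every array in the fit, no difference in Smo passed the threshold: it was 0.25 for reprogrammed minus adult lung (95% interval −0.89 to 1.39), 0.85 for reprogrammed mammary minus adult lung and −0.75 for adult lung minus adult mammary. Without reprogrammed lung replicate 1, limma called all of these, at 1.02 (adjusted p = 0.00545), 0.85 (adjusted p = 0.00625) and −0.75 (adjusted p = 0.0111). That array is no part of the comparisons of reprogrammed mammary or adult mammary with adult lung, whose differences did not move. Their adjusted p changed through the spread that all groups share in the fit. Over all alternatives the adjusted p was 0.00382 to 0.971 for reprogrammed minus adult lung, 0.00425 to 0.825 for reprogrammed mammary minus adult lung and 0.0111 to 0.876 for adult lung minus adult mammary. The second Smo probe followed the first, with reprogrammed lung replicate 1 again lowest at −2.19, and passed for reprogrammed mammary minus adult lung (0.97, adjusted p = 0.0492 by limma). On reprogrammed lung replicate 1 the summed leukocyte marker signal was 48.3, against 1.09 to 17.7 on the other 11 arrays, and the part of these cells in its Smo level was not tested.

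On the receptor side, 5 further genes were tested, of which 2 were called for reprogrammed minus adult lung and 2 for adult lung minus adult mammary. Over all features, 23.4% and 28.5% were called in these comparisons. Cdon, a co-receptor that presents ligand to Ptch1, was at 0.07, 0.78 and 2.35 in reprogrammed lung, 2.27, 1.67 and 2.46 in reprogrammed mammary, −2.0, −1.06 and −0.93 in adult lung, and 1.68, 1.46 and 1.23 in adult mammary. Every adult lung array lay below every other array. The log2 difference was 2.40 ± 0.51 SE for reprogrammed minus adult lung (adjusted p = 0.00719 by limma) and −2.79 ± 0.51 SE for adult lung minus adult mammary (adjusted p = 0.00277 by limma). Lrp2, an endocytic receptor that binds Shh, ran opposite to Cdon, at −1.68 and 1.78 in the same comparisons, both past the threshold. The co-receptors Boc and Gas1 did not pass in these comparisons. Without reprogrammed lung replicate 1, the list gave 4 higher and 1 lower in place of 1 and 1 for reprogrammed minus adult lung, and 1 higher and 3 lower in place of 1 and 1 for adult lung minus adult mammary. It gave 1 higher and 2 lower for adult lung minus adult mammary without reprogrammed lung replicate 3.

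**Figure D1:**
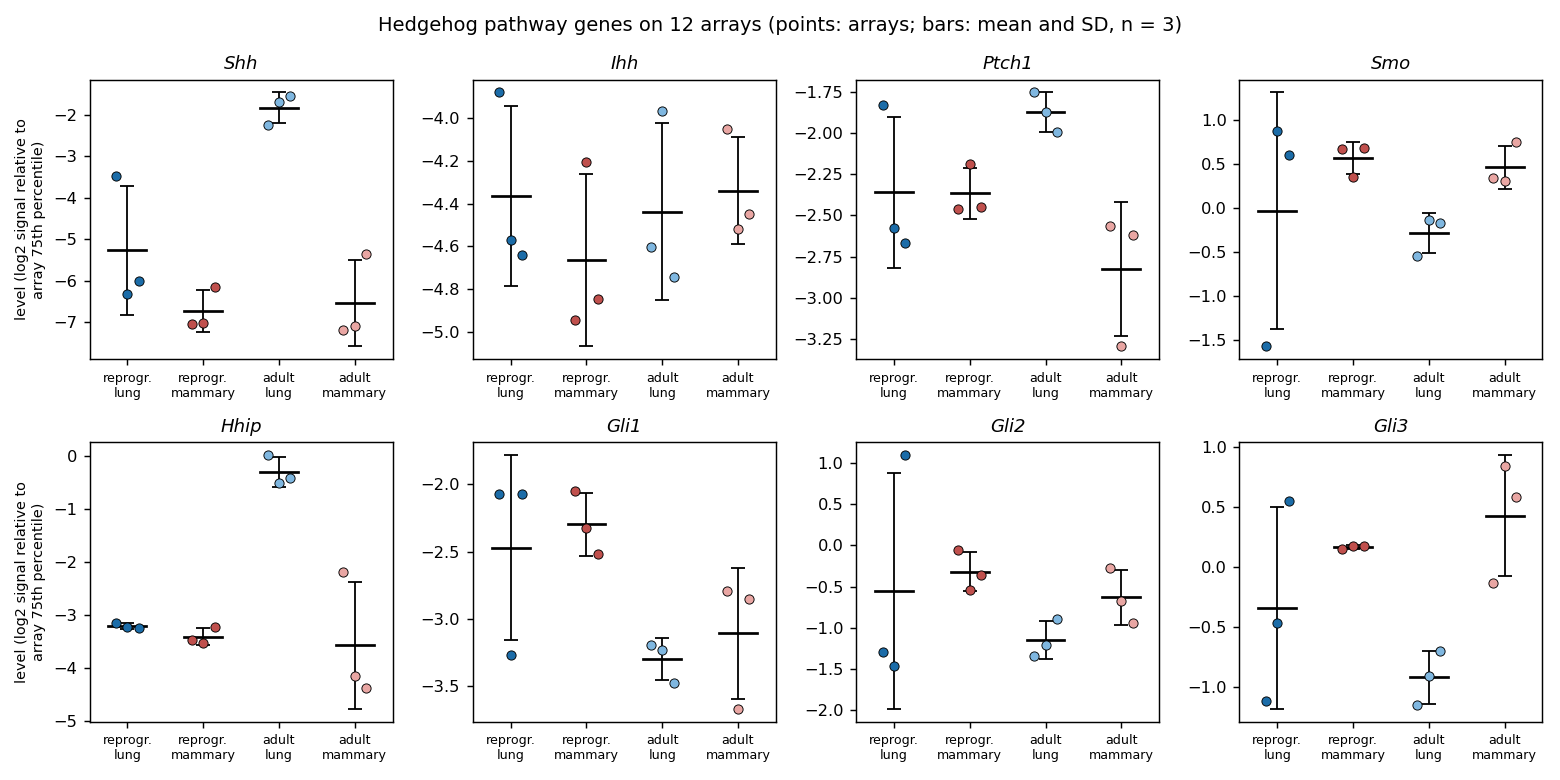
Level of each Hedgehog pathway gene on the 12 arrays, as log2 signal relative to the array's 75th percentile (vertical axis, a separate scale per gene), by group (horizontal axis); points are arrays and bars the mean and SD of 3 arrays. Shh and Hhip in adult lung lie above all other arrays, and the lowest Smo point, at −1.57, belongs to reprogrammed lung replicate 1.

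Gli1 is switched on by the pathway and reinforces it, and its messenger RNA is often read as a measure of pathway activity. Its level was −2.07, −3.26 and −2.07 in reprogrammed lung, −2.05, −2.32 and −2.51 in reprogrammed mammary, −3.19, −3.23 and −3.48 in adult lung, and −2.79, −3.67 and −2.85 in adult mammary. The 3 reprogrammed mammary arrays lay above all arrays of both adult groups, whereas reprogrammed lung was split, with replicate 3 at the adult level. The difference between adult lung and adult mammary was −0.19 (95% interval −0.95 to 0.57), so its sign was not settled. For reprogrammed mammary minus adult lung the log2 difference was 1.00 ± 0.34 SE and stood at the threshold (adjusted p = 0.0539 by limma), and it was called under 11 of 24 alternatives (adjusted p of 0.00212 to 0.358). For reprogrammed mammary minus adult mammary it was 0.81 (95% interval 0.05 to 1.57, adjusted p = 0.475 by limma). For reprogrammed minus adult lung it was 0.83 (adjusted p = 0.111 by limma), and 1.22 (adjusted p = 0.0128, the lowest of its alternatives, against a highest of 0.292) without reprogrammed lung replicate 3.

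Gli2, the main activator of the pathway, was at −1.29, −1.46 and 1.09 in reprogrammed lung, −0.06, −0.54 and −0.35 in reprogrammed mammary, −1.34, −1.21 and −0.89 in adult lung, and −0.28, −0.67 and −0.94 in adult mammary. Reprogrammed lung replicate 4 was the highest array of all, and the other two arrays of its group lay at the adult lung level. No difference in Gli2 passed the threshold with every array in the fit of all groups. Reprogrammed mammary minus adult lung, at 0.83 (adjusted p = 0.319 by limma), was called under 3 of 24 alternatives: without reprogrammed lung replicate 4 (adjusted p = 0.0181), with array weights (0.0291) and in the fit of the 2 groups alone (0.0117). The pair of Gli2 probes disagreed, with a correlation of 0.41 over the 12 arrays. On its second probe the highest arrays were reprogrammed lung replicates 1 and 4, at −0.79 and −0.91, against −1.31 or lower on all others. The summed signal of 10 fibroblast and mesenchyme markers was 484.4 on reprogrammed lung replicate 4, against 132.4 and 139.2 on replicates 1 and 3 of that group, and 115.5 to 348.7 in the other groups. Its part in the Gli2 level was not tested.

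Gli3, the main repressor when ligand is absent, was lower in adult lung than in the mammary groups. Its level was −1.11, −0.46 and 0.55 in reprogrammed lung, 0.15, 0.17 and 0.18 in reprogrammed mammary, −1.14, −0.90 and −0.70 in adult lung, and −0.14, 0.84 and 0.58 in adult mammary. All adult lung arrays lay below all arrays of both mammary groups, and reprogrammed lung ranged over nearly the whole scale. Gli3 was 2.54-fold lower in adult lung than in adult mammary (limma, log2 difference −1.34 ± 0.38 SE, adjusted p = 0.0234). The call was lost when adult lung replicate 1, adult lung replicate 2, adult mammary replicate 2 or adult mammary replicate 4 was left out (adjusted p of 0.0818, 0.0647, 0.0894 and 0.0676) and with slide as a fixed block (0.131), the range over its alternatives being 0.00270 to 0.131. The dimmer probe, below background in adult lung, gave a difference of the same sign, at least 1.94-fold (adjusted p = 0.0197 by limma). That probe was tested through the mammary groups alone, where it was higher, so its p-values add no support beyond the levels. For reprogrammed mammary minus adult lung the first probe stood at the threshold (1.08, adjusted p = 0.0598; called under 7 of 24 alternatives, at 0.00137 to 0.246) and the second passed it (1.22, adjusted p = 0.0245 by limma). Between reprogrammed and adult lung the difference was 0.57 (95% interval −0.27 to 1.42).

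**Figure D2:**
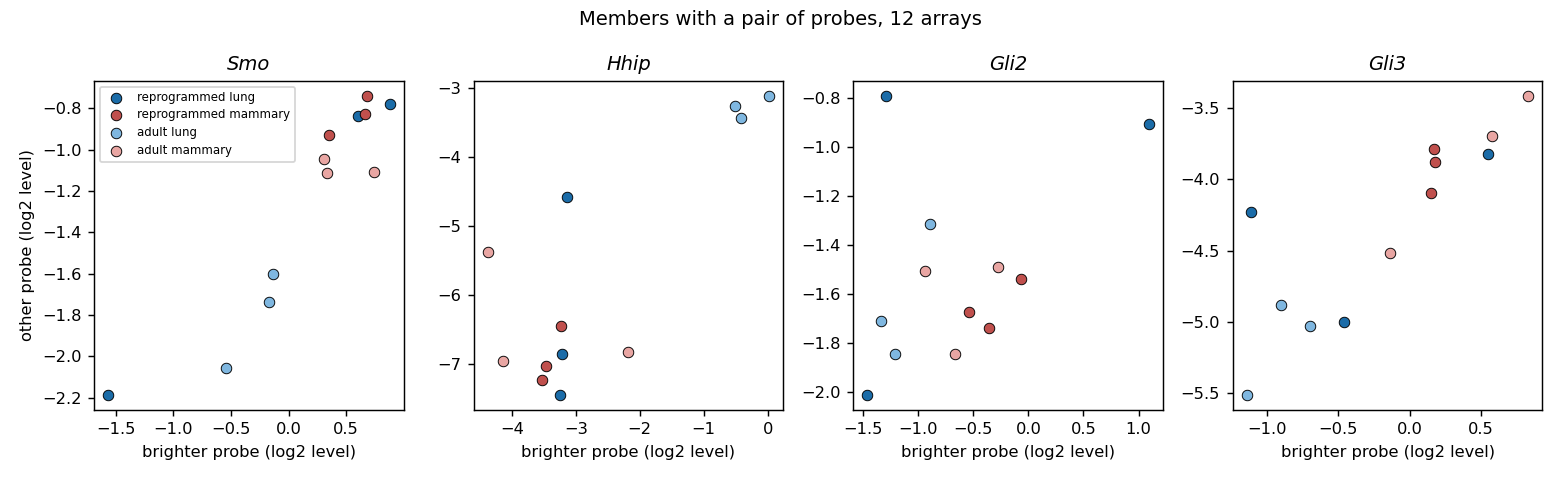
Level on the dimmer probe (vertical axis) against level on the brighter probe (horizontal axis) for the 4 genes with a pair of probes, as log2 signal relative to the array's 75th percentile; each point is an array, coloured by group. The pairs of Smo, Gli3 and Hhip follow each other, with correlations of 0.93, 0.85 and 0.79 over 12 arrays, and the pair of Gli2 does not, at 0.41.

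Counted over the 8 genes, adult lung minus adult mammary gave 3 higher (Shh, Hhip and Ptch1) and 1 lower (Gli3), where 28.5% of all features tested were called. Reprogrammed minus adult lung gave 0 higher and 2 lower (Shh and Hhip), against 23.4% of all features. Reprogrammed mammary minus adult lung gave the same 2 as lower, against 26.1%. Shh, counted in each of these, was tested through adult lung alone. A count of 2 among 8 is close to the share of all features. The median log2 difference of the 8 genes was −0.14, 0.16 and 0.30 in these comparisons, beside 0.00, 0.10 and 0.04 over all features. Single arrays moved these counts: adult lung minus adult mammary gave 2 without adult lung replicate 1, adult lung replicate 2 or adult mammary replicate 2, reprogrammed minus adult lung gave 4 without reprogrammed lung replicate 1, and reprogrammed mammary minus adult lung gave 5 without reprogrammed lung replicate 1 or 4. These comparisons share the adult lung arrays, so a level particular to those arrays enters all of them.

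None of the 8 genes passed limma's threshold in the other comparisons, in which hardly any feature did. For reprogrammed mammary minus adult mammary, 0.00408% of features were called, and 1 of the 8 genes, Gli1, had an unadjusted p under 0.05, beside 10.0% of all features. For reprogrammed lung minus reprogrammed mammary the called share was 0.00816% and for reprogrammed lung minus adult mammary 0.0286%, with 0 of the 8 genes at an unadjusted p under 0.05. Over all features, 9.6% and 11.8% had an unadjusted p under 0.05 in these comparisons. The intervals were wide: that of Shh ran from −0.12 to 3.06 for reprogrammed lung minus reprogrammed mammary, and that of Hhip from −0.66 to 1.40 for reprogrammed lung minus adult mammary.

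**Figure D3:**
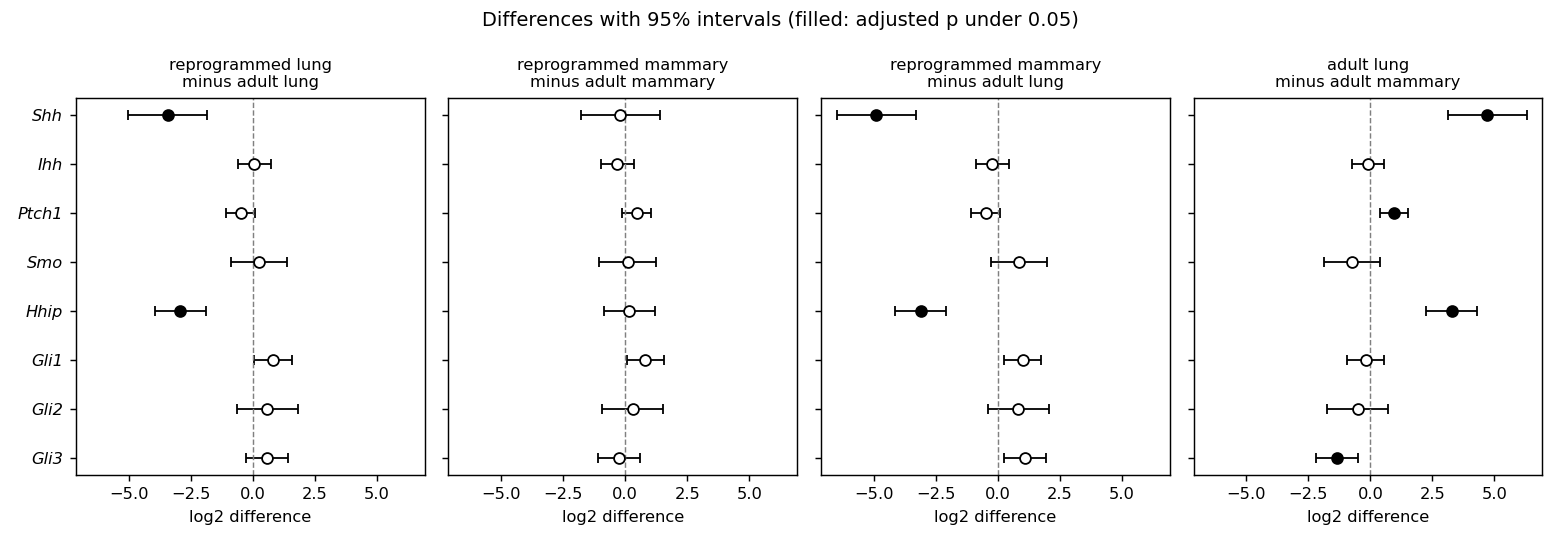
Log2 difference of each gene in 4 comparisons (horizontal axis; points, with bars for limma's 95% interval), genes down the page in order of role; filled points have an adjusted p under 0.05. Shh and Hhip are filled in the panels that involve adult lung, and no point is filled for reprogrammed mammary minus adult mammary.

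The study's organs may also be set against each other by how far each reprogrammed group lay from its adult namesake, though the labels leave unsaid whether that name is the donor organ. This difference of changes, reprogrammed minus adult lung less reprogrammed minus adult mammary, passed for Hhip alone among the 8 genes, at −3.07 ± 0.66 SE on the log2 scale (adjusted p = 0.0140 by limma), where 12.8% of all features were called. Hhip fell by 2.91 in reprogrammed lung and differed by 0.17 in reprogrammed mammary, each against its adult namesake. The same contrast equals the Hhip difference between reprogrammed lung and reprogrammed mammary (0.20) less that between adult lung and adult mammary (3.27). It thus rests mainly on the adult difference given above and is no independent result. The call was lost with slide as a fixed block (adjusted p = 0.0571; 0.000337 to 0.0619 over all alternatives). Shh was tested through adult lung alone and lay mostly at background elsewhere, so its p-values here add no support beyond the levels. For Shh the difference of changes was −3.24 (adjusted p = 0.0630 by limma). It passed without reprogrammed lung replicate 1 (−4.13, adjusted p = 0.00441 by limma, with 0.000193 to 0.179 over all alternatives). Ptch1 behaved likewise, at −0.94 (adjusted p = 0.128) and −1.21 (adjusted p = 0.0209 by limma) without that array (0.0189 to 0.287 over all alternatives). With every array kept, Shh and Ptch1 also passed under quantile normalization (adjusted p = 0.000402 and 0.0226 by limma). They passed under normexp (0.000633 and 0.0279) and in the authors' log2 values (0.000193 and 0.0272) as well. Without reprogrammed lung replicate 1, 4 of the 8 genes were called, and 2 were without adult mammary replicate 4.

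Genes known as Hedgehog targets in various tissues, 14 of which were tested apart from Ptch1, Hhip and Gli1, carried log2 differences of up to 6.27. In reprogrammed lung, 6 fell and 1 rose against adult lung, with a median log2 difference of −0.97 beside 0.10 for all features. In adult lung, 6 were higher and 0 lower than in adult mammary, with a median of 1.14 beside 0.00 (limma; 10 of the 14 had an unadjusted p under 0.05, beside 39.8% of all features). Over all features, 23.4% were called in the first comparison and 28.5% in the second. Foxf1, a transcription factor of lung mesenchyme and endothelium, was at −0.63, −2.07 and −1.59 in reprogrammed lung, −2.03, −1.57 and −1.32 in reprogrammed mammary, 4.53, 4.07 and 3.99 in adult lung, and −1.72, −2.21 and −2.30 in adult mammary. The gap between adult lung and every other array exceeded 4 log2 units. The log2 difference was −5.63 ± 0.35 SE for reprogrammed minus adult lung and 6.27 ± 0.35 SE for adult lung minus adult mammary (adjusted p = 8.16e-06 and 3.89e-06 by limma). Its relative Foxf2 was well above background in adult lung alone and was tested through that group. It was at least 14.5-fold lower in reprogrammed than in adult lung and at least 16.5-fold higher in adult lung than in adult mammary. Cyp26b1, which breaks down retinoic acid, and Hsd11b1, which activates glucocorticoids, differed by −3.14 and −2.48 between reprogrammed and adult lung and by 3.32 and 3.57 between adult lung and adult mammary, all past the threshold. Bmp4, a signalling ligand, and Ccnd2, a cyclin, took the same directions with log2 differences of −1.04 and −0.90 in the lung comparison. The transcription factor Osr1 was the gene that rose, at 1.57 (adjusted p = 0.0278 by limma), and the list gave 0 higher when any of the 3 adult lung arrays was left out or slide was a fixed block.

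Marker lists of several cell types moved beside these genes. All 6 endothelial markers were lower in reprogrammed than in adult lung and higher in adult lung than in adult mammary. Their summed signal was 32.1 to 42.5 in reprogrammed lung, 23.9 to 26.1 in reprogrammed mammary, 118.5 to 141.0 in adult lung and 15.6 to 34.5 in adult mammary. Of 10 fibroblast and mesenchyme markers, 2 rose and 3 fell in reprogrammed against adult lung, and 1 fell where adult lung replicate 2 or 3 or reprogrammed lung replicate 1 or 3 was left out. Of 8 general epithelial markers, 4 rose in that comparison (7 without reprogrammed lung replicate 1) and none fell, and 7 were lower in adult lung than in adult mammary (3 with slide as a fixed block). Over all features, 23.4% were called for reprogrammed minus adult lung and 28.5% for adult lung minus adult mammary. How much of the differences in Shh, Hhip, Ptch1 and the target genes goes with these cell types was not tested.

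**Figure D4:**
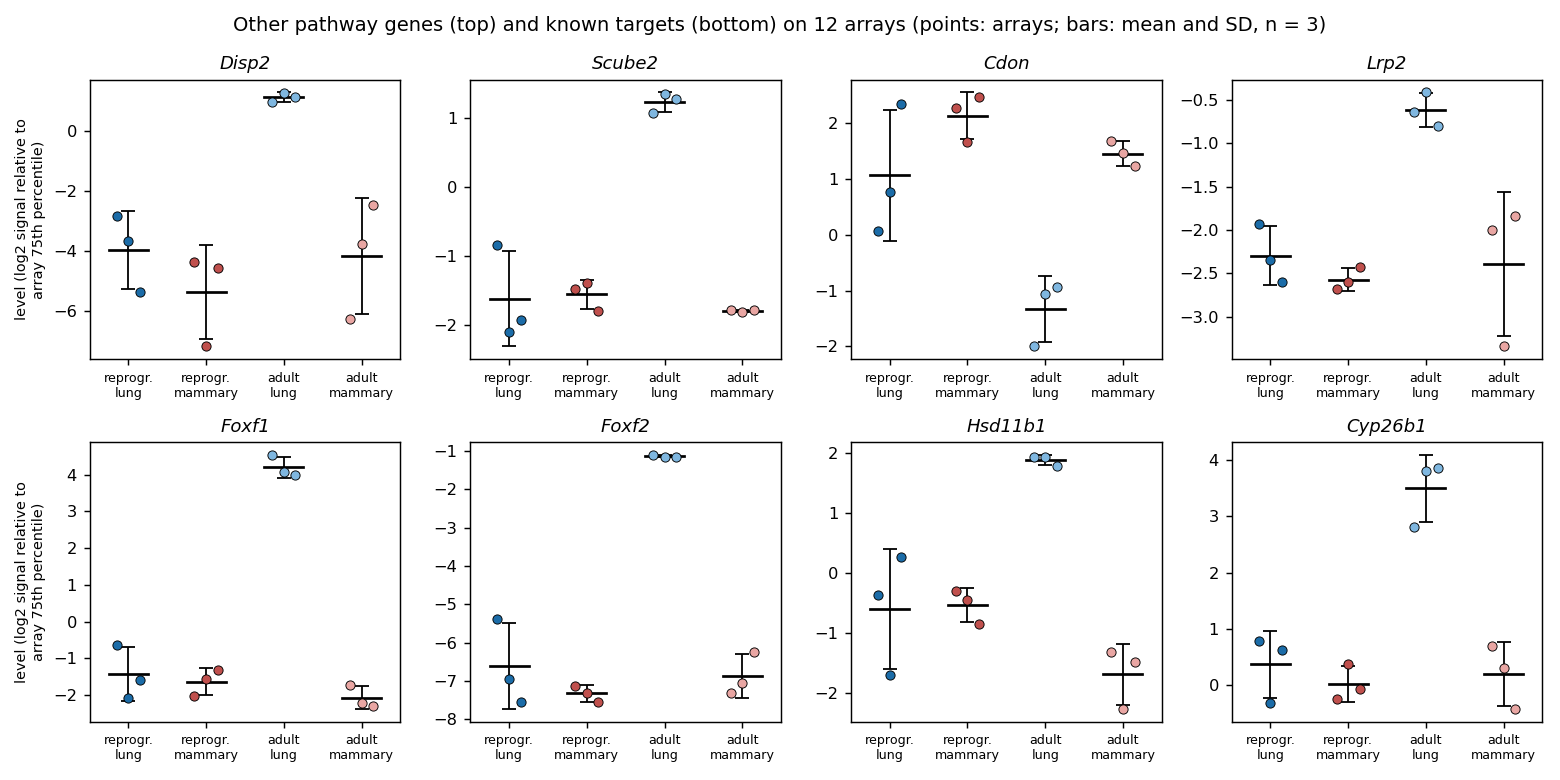
Level of 4 genes of the ligand and receptor side (top row) and 4 known Hedgehog targets (bottom row) on the 12 arrays, as log2 signal relative to the array's 75th percentile (vertical axis, a separate scale per gene), by group (horizontal axis); points are arrays and bars the mean and SD of 3 arrays. Adult lung is above all other arrays in every panel but that of Cdon, where it is below them.

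The signal between Smo and Gli is carried by genes of which 15 on a list were tested. In reprogrammed minus adult lung 1 rose and 1 fell (3 and 2 without reprogrammed lung replicate 1), and in adult lung minus adult mammary 1 was higher and 2 lower (1 and 0 without adult lung replicate 2, adult mammary replicate 1 or adult mammary replicate 2, and with slide as a fixed block). Spop, the adaptor that marks Gli2 and Gli3 for degradation, differed by −0.68 in the first and 0.92 in the second (adjusted p = 0.00736 and 0.00121 by limma). Gpr161, a ciliary receptor that holds the pathway down, went the other way, at 0.72 and −0.67. The kinase Csnk1a1 differed by −0.67 between adult lung and adult mammary. Of 19 genes of the primary cilium, 2 rose (Ift140 at 0.77 and Ift27 at 0.75) and 0 fell in reprogrammed against adult lung (limma, 4 at an unadjusted p under 0.05). These counts were 4 and 0 without reprogrammed lung replicate 1, 2 and 3 without reprogrammed lung replicate 4, and 0 and 0 without adult lung replicate 1. For both lists the called counts lie near or below the shares of all features called, 23.4% for reprogrammed minus adult lung and 28.5% for adult lung minus adult mammary. In adult lung minus adult mammary, 0 of the cilium genes were higher and 3 lower: Arl13b at −1.15, Dync2h1 at −1.15 and Ift140 at −0.83, and without reprogrammed lung replicate 1 the counts were 2 and 6, and with slide as a fixed block 0 and 0. Across all 61 such genes of the 5 lists, none passed for reprogrammed mammary minus adult mammary by limma, where 0.00408% of all features were called. Of the 61, 7 had an unadjusted p under 0.05, close to the 10.0% of all features.

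Each gene had a nearest match among 14527 named genes over the 12 arrays, by Pearson correlation of levels, which the arrays' groups and signal spans shape in common. For Shh these were Fgfr4 (0.99), Mlc1 (0.98) and Cldn18 (0.98), for Hhip Syne1 (0.99), Epas1 (0.98) and Fam219a (0.98), and for Ptch1 Lrch4 (0.98) and Tekt4 (0.97). For Smo they were Uqcc1 (0.98), Tceal9 (0.98) and Slc44a3 (0.98). For the transcription factors the matches were looser: Gsto2 (0.96), Plxnb3 (0.94) and Selenom (0.94) for Gli1, Galnt17 (0.92), Lrrc17 (0.92) and Medag (0.92) for Gli2, and Clint1 (0.96), Klf5 (0.94) and Acsl3 (0.94) for Gli3. Ihh, near the detection limit, reached only 0.87 with Chil6, 0.85 with Dyrk4 and 0.85 with Mafa. Shh was well above background on 4 of 12 arrays, so its matches rest mainly on the gap between adult lung and the rest.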

How the data were processed

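Total RNA of 12 samples was hybridised to single-colour Agilent arrays, labelled with Cy3 after linear amplification, per the labels. The deposited processed signal is, per the file headers, a background-subtracted linear intensity from Agilent Feature Extraction 10.5.1.1 (10.1 per the submitters' processing notes). The authors' deposited series matrix holds log2 values, used as an alternative (their normalization: not given in the sources used here).

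There were 43379 spots for 41174 probes on every array. Spots of a probe were averaged without outlier spots (91 to 280 per array), and log2 signal minus the array's 75th percentile was used. The 75th percentile was 293.8 to 608.5 and negative controls had medians of 18 to 23. Accessions gave 24844 probes a symbol through a RefSeq table. The brightest probe stood for a gene, which left 32678 features, and 24503 were tested because they were well above background on all arrays of at least 1 group. All 8 members were tested. The number of arrays limits precision. Groups were compared with limma 3.58.1 in R 4.3.3, with a mean per group over all 12 arrays (8 residual and 2.37 prior degrees of freedom), two-sided p adjusted by Benjamini-Hochberg over all features, at 0.05; intervals are 95%. All groups share an estimate of the spread, so leaving out an array can move calls in comparisons that do not hold it. The fit was tested on simulated data. The members and lists were chosen with earlier results of these data known. Named list genes were the up to 4 with the largest difference among those that passed; Boc, Gas1, Bmp4, Ccnd2, Osr1 and the single marker genes were named after their values were seen. Alternatives covered normalization, background, filter, probe, slide, replicate number, array weights and each array left out; list counts under them were added after seeing the data. A few genes are not reported here.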

Additional observations from a re-analysis of the deposited data

Results flagged for a closer look

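In the main fit, Hhip alone among the 8 genes passed a test of the difference between the organs' changes against the adult namesake. Its log2 difference of changes, lung less mammary, was −3.07 ± 0.66 SE (95% interval −4.53 to −1.62, adjusted p = 0.0140 by limma). It was lower on all 3 reprogrammed lung arrays than on any adult lung array, while reprogrammed and adult mammary overlapped. The dimmer Hhip probe, tested through adult lung alone, gave −2.51 (adjusted p = 0.106 by limma). Adult mammary replicate 1, at −2.19, lay above the other two adult mammary arrays, at −4.14 and −4.38. Over all alternatives the difference of changes ran between −3.76 and −2.02. The call was lost with slide as a fixed block and with the replicate block (adjusted p = 0.0571 and 0.0619 by limma). As given above, this contrast rests mainly on the difference between adult lung and adult mammary. Shh and Ptch1 passed the same test under some alternatives.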

How the results depend on the processing

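The 9 differences called among the members kept their sign under every alternative tried, and their side of the threshold in 200 of 212 values; no called member value reversed. Of 1322 member values under alternatives, 52 gained a call and 92 that were not called changed sign. The 12 that lost it were Ptch1 and Gli3 for adult lung minus adult mammary and Hhip for the difference of changes between the organs. The same-numbered replicates did not pair: 5 of 13 pairs deviated together with a correlation above 0.1 (range −0.53 to 0.33). With the replicate number as a replicate block, 4 members were called for reprogrammed mammary minus adult lung, against 2 without it (Gli1 and Gli3 added, adjusted p = 0.0228 and 0.0381), 0 for the difference of changes, against 1 (Hhip adjusted p = 0.0619), and Ptch1 was lost for adult lung minus adult mammary (adjusted p = 0.0538). With slide as a fixed block, 2 members in place of 4 were called for adult lung minus adult mammary, and 0 for the difference of changes. With the 2 arrays of narrow span left out, 4 were called for reprogrammed minus adult lung, 5 for reprogrammed mammary minus adult lung and 3 for the difference of changes. For reprogrammed mammary minus adult lung, array weights gave 7 (3 for the difference of changes), the 2 groups alone gave 7 and every probe as a feature gave 4. Quantile normalization, normexp and the authors' log2 values each gave 3 for the difference of changes (Hhip, Shh and Ptch1). A filter on all arrays gave 1 for reprogrammed minus adult lung, by leaving out Shh. With each array left out in turn, the counts ran from 2 to 5 for adult lung minus adult mammary, 2 to 4 for reprogrammed minus adult lung, 2 to 5 for reprogrammed mammary minus adult lung and 1 to 4 for the difference of changes. Counts for the other comparisons were 0 throughout. The cause of these moves was not tested. Scaling moved the share of higher calls among all features: for reprogrammed minus adult lung it was 60.2% by the 75th percentile, 50.7% by quantile normalization, 47.1% by normexp and 47.5% in the authors' values, and for the difference of changes 57.9%, 47.2%, 41.2% and 44.0%.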
